A study of Mus musculus with 16 samples.

Results

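The subunits of the mitochondrial respiratory chain and ATP synthase that are encoded in the nucleus were followed in mouse lung RNA-seq. Members were the genes whose symbol is Nduf followed by a, b, c, s or v and digits (complex I), Sdha to Sdhd (complex II), or starts with Uqcr (complex III), Cox4 to Cox8 (complex IV) or Atp5 (complex V), with pseudogenes left out. This gave 84 of the 53647 genes in the table: 36 of complex I, 4 of complex II, 8 of complex III, 18 of complex IV and 18 of complex V. Of the 4 groups, 3 had received bleomycin, which damages DNA and leads to lung fibrosis in mice. The Ad-ATP12A group had also received an adenovirus that the labels name for ATP12A, a proton-potassium pump of the colon and airway. In the Ad-GFP group the added adenovirus was named for GFP, the bleomycin group has no virus in its label, and the remaining group was control. Each group had 4 libraries of lung RNA, 2 from each of 2 batches, 16 in all. The labels give no strain, sex, age, dose, route or time, do not say what control animals received, and do not say whether replicates were separate animals, so that p-values measure the spread between libraries, which may be technical.

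The respiratory chain passes electrons from NADH (complex I) or succinate (complex II) through ubiquinone to complex III, cytochrome c and complex IV, which reduces oxygen. The proton gradient that complexes I, III and IV build drives ATP synthase, complex V. Every subunit of complex II and most subunits of the others are made in the cytosol from nuclear genes and imported, while a few catalytic subunits of complexes I, III, IV and V are encoded by mitochondrial DNA, so that each of these complexes needs both sources.

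Some of the nuclear genes hold short promoter letters that nuclear respiratory factor 1 (NRF1), ETS family factors and YY1 are known to bind. RefSeq promoter windows on GRCm38.p6, from 250 bases before to 50 bases after a transcript start, were matched to 69 members by symbol, 2 of them through a synonym. The 2 identifiers of Atp5o share a window, which holds an NRF1 match and is counted for both among the members. The NRF1 letters, GCGCA, any base, then GCGC, were found on either strand in 18 of the 69 members (26.1%), against 5.19% of all 27025 genes with a window. CCGGAAG (ETS) was found in 16 members (23.2%), against 9.93% of all genes, and AAGATGGC (YY1) in 10 (14.5%), against 3.19%. Any of the 3 was found in 55.1% of members, against 16.4% of all genes. This differed by complex, with 17 of 32 members in complex I, 3 of 3 in complex II and 3 of 5 in complex III. It was 3 of 13 in complex IV (23.1%) and 12 of 16 in complex V. The YY1 letters were found in 0 members of complexes II, III and IV. Of the members with a window, 13 of 25 that rose with bleomycin, as counted below, held at least 1 of the 3 motifs (52%), and 24 of 42 that did not pass held one (57.1%). These matches describe letters in a window and do not show binding. The last 120 bases before the start are shown for 2 subunits of complex II that differed in direction, Sdhd at chr9:50603850-50603969 (minus strand) and Sdha at chr13:74350241-74350360 (minus strand), and for Cox5a at chr9:57521112-57521231 (plus strand), which had the largest rise after bleomycin. Capitals mark the motif letters, read 5′ to 3′ on the gene's strand.
Sdhd: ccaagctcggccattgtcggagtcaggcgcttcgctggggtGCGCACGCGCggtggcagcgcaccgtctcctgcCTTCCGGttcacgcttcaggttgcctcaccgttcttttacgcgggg
Sdha: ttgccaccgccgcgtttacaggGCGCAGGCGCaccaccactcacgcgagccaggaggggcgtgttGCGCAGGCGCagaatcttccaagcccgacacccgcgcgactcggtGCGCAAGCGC
Cox5a: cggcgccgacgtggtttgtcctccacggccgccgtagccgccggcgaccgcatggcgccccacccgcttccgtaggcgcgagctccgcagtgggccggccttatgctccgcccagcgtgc
The Sdhd stretch holds 1 NRF1 match and 1 ETS match on the opposite strand, the Sdha stretch holds 3 NRF1 matches, and the Cox5a stretch holds none of the 3 motifs.

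Values were TPM, relative transcript abundances that correct for transcript length and add up to the same total in each library, and they carry no read depth. From 15537 to 16336 genes reached 1 TPM in a library. Members took between 1.25% and 1.77% of a library's TPM, and the 13 mitochondrially encoded protein genes between 5.2% and 11.0%. Atp12a stood at 2.96 to 29.0 TPM in the Ad-ATP12A libraries and at no more than 0.2 TPM in any other. Scgb1a1, the main club cell secretory gene, was under 1000 TPM in 3 libraries (Ad-GFP batch 1 replicate 1, bleomycin batch 2 replicate 2 and control batch 2 replicate 1). The 5 red blood cell markers summed to 9234 to 39808 TPM with Ad-ATP12A, 10442 to 23884 TPM with Ad-GFP, 5779 to 14084 TPM with bleomycin and 16514 to 50937 TPM in control. The 4 club cell markers summed to 29573 to 64791 TPM with Ad-ATP12A, 14904 to 36553 TPM with Ad-GFP, 5104 to 74773 TPM with bleomycin and 11470 to 126926 TPM in control. The 4 endothelial markers summed to 415 to 812 TPM with Ad-ATP12A, 541 to 1267 TPM with Ad-GFP, 569 to 1066 TPM with bleomycin and 1034 to 1474 TPM in control. All 4 fell with Ad-ATP12A, and 1 of 4 fell with Ad-GFP and with bleomycin. Of the 5 red blood cell markers, 1 fell with Ad-ATP12A (median −0.93), 1 with Ad-GFP (−1.03) and 5 with bleomycin (−1.95). Of all genes tested, 9.49%, 4.52% and 5.61% fell in these comparisons, in the same order. The 5 alveolar type 2 markers summed to 6719 to 34145 TPM with Ad-ATP12A, 7181 to 37121 TPM with Ad-GFP, 11863 to 30127 TPM with bleomycin and 23701 to 35042 TPM in control, with median log2 fold changes of −0.90 with Ad-ATP12A, −0.44 with Ad-GFP and −0.60 with bleomycin. The 4 macrophage markers summed to 6117 to 8655 TPM with Ad-ATP12A, 6383 to 11359 TPM with Ad-GFP, 5573 to 10179 TPM with bleomycin and 5522 to 10571 TPM in control. Of these, 2 rose with Ad-ATP12A (median 1.40), 1 with Ad-GFP (0.75) and 1 with bleomycin (0.91). In the same order, 13.3%, 9.16% and 13.2% of all genes rose. The median of the macrophage markers was 2.88 in batch 2 and −0.13 in batch 1 with Ad-ATP12A, and 1.39 and 0.24 with Ad-GFP. With bleomycin it was 1.90 in batch 2 and 0.028 in batch 1. The part of these cell markers in the results was not tested.

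Levels per transcript length differed widely within complexes I, III, IV and V. The highest member by mean TPM over the 16 libraries was Ndufa4 in complex I (315 TPM; by name a complex I subunit, but known to sit in complex IV), Sdha in complex II (112 TPM), Uqcrh in complex III (462 TPM), Cox6c in complex IV (641 TPM) and Atp5l in complex V (559.9 TPM). The lowest of those tested was Ndufb4 in complex I (22.0 TPM), Sdhb in complex II (90.6 TPM), Uqcrfs1 in complex III (82.9 TPM), the heart and muscle isoform Cox8b in complex IV (8.27 TPM) and Atp5s in complex V (13.5 TPM). Complex II was the most even, with its 4 members between 90.6 and 112 TPM. Of the 84 members, 81 were tested (at least 1 TPM in at least 4 libraries). The other three were Cox7b2 and Cox8c, isoforms known from testis, which did not exceed 0.28 and 0.5 TPM in any library, and a second identifier for Atp5o that is listed at 0 in every library. Ndufb4 is uncertain, because Ndufb4c, a copy of it outside the rule, held 199.7 to 277 TPM and reads could be split between them. Exons of 17 tested members overlap a gene on the other strand, and the strand setting of the counting is not given in the sources used here. In all of them but Ndufs1 the neighbour's mean TPM was lower than the member's, and Ndufs1 (44.8 TPM) lies opposite Eef1b2 (614 TPM).

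In complexes I, III, IV and V the summed members stood higher with Ad-ATP12A, Ad-GFP and bleomycin than in control in batch 1, and the ratios to control were smaller in batch 2. In batch 2 the 84 members summed to 14528.5 and 15672 TPM with Ad-ATP12A, 14103 and 14603.5 with Ad-GFP, 14470.0 and 15065 with bleomycin and 14189 and 13138.5 in control. In batch 1 the sums were 16087 and 16497 TPM with Ad-ATP12A, 16618 and 17708 with Ad-GFP, 17620.1 and 17209.6 with bleomycin and 12489 and 13081 in control. All 6 bleomycin-treated libraries of batch 1 lay above both of its control libraries, and in batch 2 Ad-GFP replicate 1 lay below control replicate 1. The mean sum with bleomycin was 1.08 times that of control in batch 2 and 1.36 times in batch 1. The ratio was 1.05 and 1.34 for Ad-GFP, and 1.11 and 1.27 for Ad-ATP12A. By complex, the ratio of bleomycin to control was 1.04 in batch 2 and 1.33 in batch 1 for complex I, 1.08 in both batches for complex II, 1.08 and 1.42 for complex III, 1.06 and 1.44 for complex IV, and 1.14 and 1.33 for complex V. For Ad-ATP12A, complex II had a ratio of 1.11 in batch 2 and 1.03 in batch 1. In bulk lung, more cells that are rich in these transcripts and more of these transcripts per cell cannot be told apart.

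**Figure D1:**
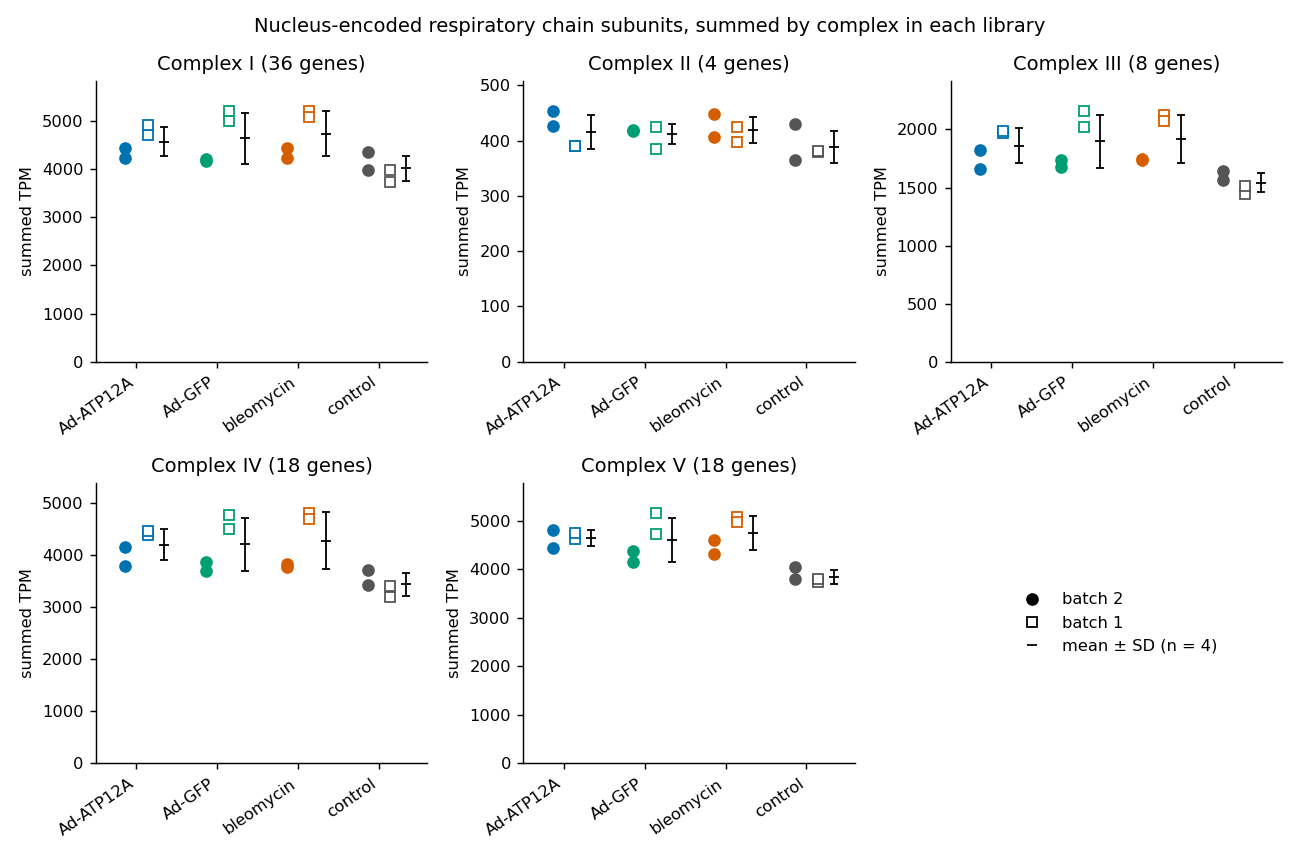
Summed TPM of the members of each complex per library, by group (Ad-ATP12A, Ad-GFP, bleomycin, control), with batch 2 as filled circles, batch 1 as open squares and a bar for mean ± SD over 4 libraries. In complexes I, III, IV and V the open squares of the 3 bleomycin-treated groups lie above every control point, and in complexes III and V the filled circles of these groups do so too, while in complexes I and IV some filled circles lie below the highest control point.

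With bleomycin, 29 of 81 members rose and none fell relative to control. Among all 17003 genes tested, 13.2% rose and 5.61% fell, so that in this fit members rose at more than the background share. The members' median log2 fold change was 0.27, against 0.047 for all genes tested, and 70 of 81 were positive. The 29 called members rose by 0.23 to 0.74 on the log2(TPM + 1) scale. They were 14 of 36 in complex I, 1 of 4 in complex II, 4 of 8 in complex III, 4 of 16 in complex IV and 6 of 17 in complex V. Within batches the members' median was 0.11 in batch 2 and 0.42 in batch 1, and that of all genes tested was 0.098 in batch 2 and 0.0040 in batch 1. Fitted alone in limma, batch 2 gave 0 called members, with 6 at an unadjusted p under 0.05, and batch 1 gave 54 (51 higher, 3 lower). Other scalings moved the split of calls to 9 higher and 6 lower (quantile normalization) and 15 higher and 2 lower (median-ratio scaling), with the members' median at 0.12 and 0.20. The shares of all genes given above are those of the main fit. Counts from a single batch or from other scalings cannot be read against them. The number called also depended on single libraries, being 10 without bleomycin batch 1 replicate 1, 13 without bleomycin batch 1 replicate 2, 18 without bleomycin batch 2 replicate 2, 13 without control batch 1 replicate 1 and 12 without control batch 1 replicate 2. Of the 29 calls, 9 held whichever library was left out: Ndufv2, Sdhd, Uqcrq, Cox5a, Cox7b, Atp5mpl, Atp5k, Atp5f1 and Atp5g1.

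**Figure D2:**
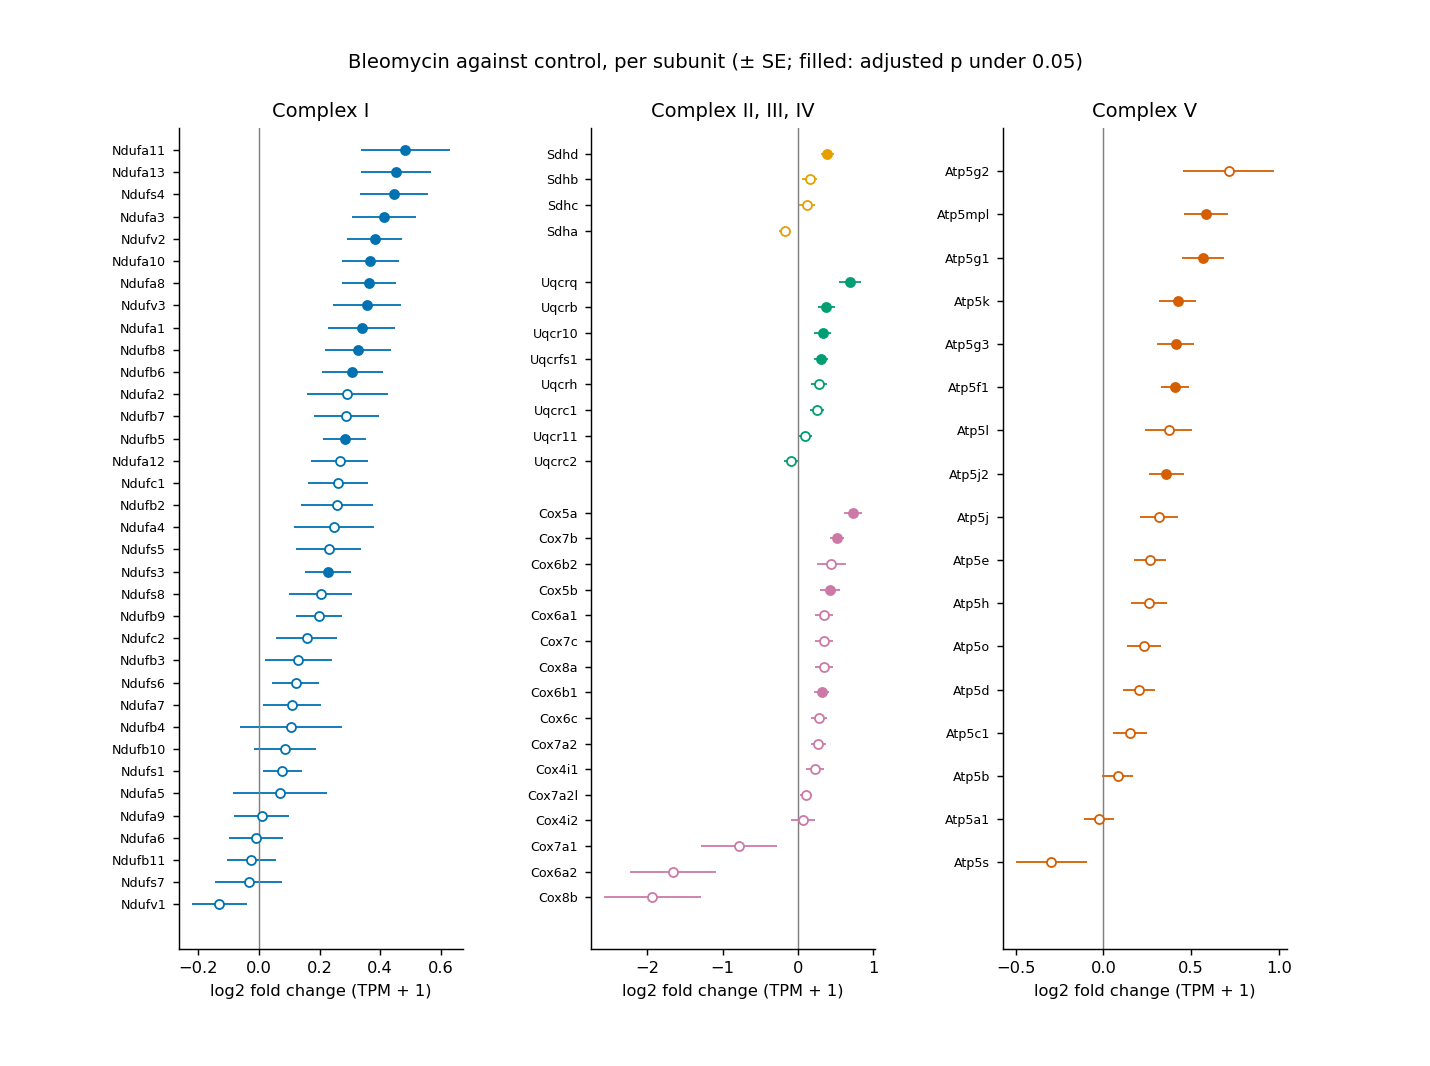
Log2 fold change of TPM + 1 of bleomycin against control for the members tested, all but 1 of the 81, by complex and sorted within it, with SE bars from limma over 16 libraries; filled points passed an adjusted p of 0.05. Most points lie to the right of 0, Cox5a is the highest called member at 0.74, and Cox8b and Cox6a2 lie far to the left without passing.

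In complex I, 14 of 36 members rose with bleomycin. Core subunits that rose include Ndufv2, which holds an iron-sulphur cluster beside the NADH site, and Ndufs3, of the arm that leads from it to the ubiquinone site. In batch 2, Ndufv2 measured 99.5 and 96.1 TPM with Ad-ATP12A, 89.9 and 104 with Ad-GFP, 94.7 and 109 with bleomycin and 88.7 and 84.3 in control. In batch 1, Ndufv2 had 103 and 106 TPM with Ad-ATP12A, 118 and 126 with Ad-GFP, 122 and 117 with bleomycin and 80.5 and 84 in control. All 4 bleomycin libraries lay above the 4 control libraries. The log2 fold change of Ndufv2 was 0.38 ± 0.091 (SE; limma adjusted p = 0.0121). Ndufs3 rose by 0.23 (limma adjusted p = 0.0481). Ndufv1, the NADH-binding flavoprotein, did not pass. In batch 2, Ndufv1 stood at 77 and 78.3 TPM with Ad-ATP12A, 70.7 and 78.5 with Ad-GFP, 69.8 and 68.4 with bleomycin and 77.8 and 66.5 in control. In batch 1, Ndufv1 had 58.4 and 70.1 TPM with Ad-ATP12A, 64.7 and 64.6 with Ad-GFP, 68 and 60.1 with bleomycin and 70.5 and 77.2 in control. These ranges overlap, and the log2 fold change was −0.13 ± 0.092 (SE; limma adjusted p = 0.34). Ndufs1, the largest subunit, had 0.077 ± 0.065 (SE; limma adjusted p = 0.436), Ndufs7 had −0.034 and Ndufs8 had 0.20, and none of them passed.

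Among the accessory subunits of complex I, Ndufa11 (0.48), Ndufa13 (0.45), Ndufs4 (0.44) and Ndufa3 (0.41) rose most with bleomycin. Ndufs4 is a subunit added late in assembly whose loss causes mitochondrial disease in humans and mice. In batch 2, Ndufs4 measured 106 and 119 TPM with Ad-ATP12A, 114 and 122 with Ad-GFP, 119 and 123 with bleomycin and 112 and 106 in control. In batch 1, Ndufs4 had 124 and 129.9 TPM with Ad-ATP12A, 127 and 149 with Ad-GFP, 148 and 149 with bleomycin and 87.1 and 90.3 in control. The 4 bleomycin libraries lay above the 4 control libraries, though in batch 2 the gap was small. Its log2 fold change was 0.44 ± 0.11 (SE; limma adjusted p = 0.0155), with 0.15 in batch 2 and 0.74 in batch 1. Ndufa8, a subunit of the intermembrane space side, rose by 0.36 ± 0.089 (SE; limma adjusted p = 0.0139), and that call was lost (adjusted p = 0.053) without bleomycin batch 1 replicate 1. Ndufa10, Ndufv3, Ndufa1, Ndufb8, Ndufb6 and Ndufb5 also rose, by 0.28 to 0.37. Ndufb11 (−0.025), Ndufa6 (−0.011) and Ndufa9 (0.0087) lay near 0 and did not pass.

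In complex II, which has no mitochondrially encoded subunit, Sdhd, the small membrane anchor of succinate dehydrogenase, rose in all 3 bleomycin-treated groups. In batch 2, Sdhd measured 109 and 116 TPM with Ad-ATP12A, 94.9 and 109 with Ad-GFP, 95.8 and 109 with bleomycin and 83 and 74.5 in control. In batch 1, Sdhd had 106 and 94.9 TPM with Ad-ATP12A, 99 and 116 with Ad-GFP, 106 and 105 with bleomycin and 82 and 76 in control. Every bleomycin-treated library lay above all 4 control libraries. The log2 fold change was 0.39 ± 0.088 (SE; limma adjusted p = 0.00891), with 0.37 in batch 2 and 0.41 in batch 1. Sdha, the flavoprotein that oxidises succinate, had a negative value. In batch 2, Sdha measured 101 and 113 TPM with Ad-ATP12A, 115 and 114 with Ad-GFP, 117 and 122 with bleomycin and 136 and 121 in control. In batch 1, Sdha had 99.5 and 104 TPM with Ad-ATP12A, 105 and 99.7 with Ad-GFP, 103 and 97.5 with bleomycin and 121 and 117 in control. The ranges of bleomycin and control overlap, while the Ad-ATP12A and Ad-GFP libraries all lay below the 4 control libraries. The log2 fold change with bleomycin was −0.17 ± 0.072 (SE; limma adjusted p = 0.108), which did not pass. Sdhb, the iron-sulphur subunit, had 0.16 ± 0.099 (SE; limma adjusted p = 0.28), and Sdhc, the large anchor, had 0.12 ± 0.11 (SE; limma adjusted p = 0.441).

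In complex III, Uqcrq, Uqcrb, Uqcr10 and the Rieske iron-sulphur protein Uqcrfs1 rose with bleomycin, and the core proteins Uqcrc1 and Uqcrc2 did not pass. Uqcrq is a small subunit beside cytochrome b. In batch 2, Uqcrq measured 225 and 250.1 TPM with Ad-ATP12A, 188 and 228 with Ad-GFP, 197 and 208 with bleomycin and 157 and 158 in control. In batch 1, Uqcrq had 274 and 226 TPM with Ad-ATP12A, 289.6 and 337 with Ad-GFP, 321 and 294 with bleomycin and 141 and 163 in control. No bleomycin-treated library overlapped the control libraries. The log2 fold change of Uqcrq was 0.69 ± 0.15 (SE; limma adjusted p = 0.00649), with 0.36 in batch 2 and 1.02 in batch 1. The other rises were 0.38 for Uqcrb, 0.33 for Uqcr10 and 0.30 for Uqcrfs1. In batch 2, Uqcrc2 stood at 84.5 and 98.6 TPM with Ad-ATP12A, 83.7 and 88.4 with Ad-GFP, 82.7 and 86.8 with bleomycin and 92.3 and 79.2 in control. In batch 1, Uqcrc2 had 72.9 and 82.9 TPM with Ad-ATP12A, 80.1 and 72.6 with Ad-GFP, 80 and 79.4 with bleomycin and 94.1 and 86.2 in control. The ranges overlap, and the log2 fold change of Uqcrc2 was −0.093 ± 0.09 (SE; limma adjusted p = 0.498). Uqcrc1 had 0.25 ± 0.095 (SE; limma adjusted p = 0.0779), Uqcrh, the hinge protein, 0.28, and Uqcr11 0.10.

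In complex IV, Cox5a, Cox7b, Cox5b and Cox6b1 rose with bleomycin. Cox5a is a matrix-side subunit that, with Cox4, encloses the mitochondrially encoded core. In batch 2, Cox5a measured 192 and 227 TPM with Ad-ATP12A, 173 and 198 with Ad-GFP, 178 and 192 with bleomycin and 125 and 139 in control. In batch 1, Cox5a had 250.4 and 225 TPM with Ad-ATP12A, 233 and 285 with Ad-GFP, 276 and 268 with bleomycin and 135 and 138 in control. Every bleomycin-treated library lay above every control library. The mean was 224 ± 23.9 TPM with Ad-ATP12A, 222 ± 48.6 TPM with Ad-GFP, 229 ± 50.7 TPM with bleomycin and 134 ± 6.12 TPM in control (SD, n = 4 each). The log2 fold change with bleomycin was 0.74 ± 0.12 (SE; limma adjusted p = 0.00134), with 0.49 in batch 2 and 0.99 in batch 1. Cox7b is a small membrane subunit. In batch 2, Cox7b measured 99.5 and 98 TPM with Ad-ATP12A, 99 and 114 with Ad-GFP, 119 and 129 with bleomycin and 85.1 and 96.6 in control. In batch 1, Cox7b had 138 and 127 TPM with Ad-ATP12A, 142 and 155 with Ad-GFP, 149 and 148 with bleomycin and 92.7 and 103 in control. The bleomycin libraries lay above all control libraries, and both batch 2 Ad-ATP12A libraries and Ad-GFP batch 2 replicate 1 lay below the highest control library. Cox7b rose by 0.52 ± 0.093 (SE; limma adjusted p = 0.0026) with bleomycin. Cox5b, which binds zinc, rose by 0.43 and Cox6b1, on the outer face, by 0.32. Cox4i1, the common isoform of the largest nuclear subunit, had 0.23 ± 0.12 (SE; limma adjusted p = 0.186) and did not pass.

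The isoforms of complex IV found in most tissues had log2 fold changes with bleomycin of 0.35 for Cox6a1, 0.27 for Cox7a2, 0.35 for Cox8a and 0.11 for Cox7a2l, and none of these 4 passed. Those of heart and skeletal muscle had large negative values with wide errors: Cox8b at −1.93 ± 0.65 (SE; limma adjusted p = 0.0514), Cox6a2 at −1.66 ± 0.58 (SE; limma adjusted p = 0.0596) and Cox7a1 at −0.79 ± 0.51 (SE; limma adjusted p = 0.295), which did not pass either. In batch 2, Cox8b measured 2.25 and 4.78 TPM with Ad-ATP12A, 8.15 and 0.53 with Ad-GFP, 10.8 and 3.81 with bleomycin and 13.4 and 21.1 in control. In batch 1, Cox8b had 1.46 and 8.14 TPM with Ad-ATP12A, 15.6 and 4.71 with Ad-GFP, 2.15 and 1.68 with bleomycin and 18.7 and 15.1 in control. The 4 bleomycin libraries and the 4 Ad-ATP12A libraries lay below the 4 control libraries, and Ad-GFP batch 1 replicate 1 lay among the control libraries. For Cox6a2, batch 2 held 4.17 and 8.16 TPM with Ad-ATP12A, 17.1 and 5.86 with Ad-GFP, 23 and 9.97 with bleomycin and 13.6 and 28.1 in control. Batch 1 held 4.81 and 13.9 TPM with Ad-ATP12A, 27.2 and 9.54 with Ad-GFP, 3.2 and 3.24 with bleomycin and 33.9 and 30.4 in control. Cox6a2 was at 4.17 to 13.9 TPM in the Ad-ATP12A libraries, and control batch 2 replicate 1 overlapped them. In batch 2, Cox7a1 measured 6.06 and 12.2 TPM with Ad-ATP12A, 15.4 and 3.46 with Ad-GFP, 24.8 and 14.9 with bleomycin and 14.7 and 27.1 in control. In batch 1, Cox7a1 had 10.4 and 13.3 TPM with Ad-ATP12A, 30.3 and 9.49 with Ad-GFP, 6.86 and 8.06 with bleomycin and 23.7 and 22.7 in control. Cox7a1 overlapped between control and both bleomycin alone and Ad-GFP. With Ad-ATP12A, Cox8b fell by 1.98 ± 0.65 (SE; limma adjusted p = 0.0414) and Cox6a2 fell by 1.71 ± 0.58 (SE; limma adjusted p = 0.0471), calls that were each lost in 9 of 16 fits with 1 library left out. Heart muscle markers moved with them: the 10 cardiac markers summed to 84.2 to 312 TPM with Ad-ATP12A, 104 to 774 TPM with Ad-GFP, 109 to 495 TPM with bleomycin and 385 to 782 TPM in control. With Ad-ATP12A 7 of the 10 fell (median −1.82), with Ad-GFP 0 (median −0.93) and with bleomycin 1 (median −1.48). Of all genes tested 9.49%, 4.52% and 5.61% fell in these comparisons, in the same order. Nppa alone of the 10 is listed at 0 in any library. Among them Myl7, the atrial myosin light chain, stood in batch 2 at 14.5 and 48.1 TPM with Ad-ATP12A, 122 and 19.5 with Ad-GFP, 106 and 60.6 with bleomycin and 105 and 174 in control. In batch 1 it stood at 21.2 and 69.4 TPM with Ad-ATP12A, 198 and 47.7 with Ad-GFP, 25.3 and 26.7 with bleomycin and 177 and 143 in control. The 8 skeletal muscle markers summed to 12.2 to 21.9 TPM with Ad-ATP12A, 12.3 to 21.8 TPM with Ad-GFP, 7.04 to 17.8 TPM with bleomycin and 18.2 to 29.4 TPM in control, with the myosins Myh1, Myh2 and Myh4 at no more than 0.19 TPM. The 6 adipocyte and brown fat markers summed to 4.1 to 9.3 TPM with Ad-ATP12A and 3.51 to 8.01 TPM with Ad-GFP. Their sum was 2.82 to 13.4 TPM with bleomycin and 14.1 to 33.3 TPM in control. The part of heart tissue or fat in these 3 members was not tested.

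Cox4i2, the isoform known from lung and from oxygen-sensing cells, did not pass. In batch 2, Cox4i2 measured 54.3 and 43.8 TPM with Ad-ATP12A, 74.3 and 51.1 with Ad-GFP, 72.6 and 81 with bleomycin and 84.3 and 74.8 in control. In batch 1, Cox4i2 had 52.7 and 78.8 TPM with Ad-ATP12A, 69.2 and 67.9 with Ad-GFP, 79.9 and 82.2 with bleomycin and 61.6 and 82.6 in control. These ranges overlap, and the log2 fold change with bleomycin was 0.065 ± 0.16 (SE; limma adjusted p = 0.809). Cox6b2, an isoform known mainly from testis, was present in every library. In batch 2, Cox6b2 measured 24.6 and 31.9 TPM with Ad-ATP12A, 42.8 and 29.6 with Ad-GFP, 40.3 and 56.5 with bleomycin and 34.9 and 31.6 in control. In batch 1, Cox6b2 had 61.4 and 42.7 TPM with Ad-ATP12A, 51.2 and 41.9 with Ad-GFP, 47.9 and 50.7 with bleomycin and 33 and 43 in control. The groups overlap, and its log2 fold change was 0.44 ± 0.19 (SE; limma adjusted p = 0.121). Of 2 testis markers, Tnp1 is listed at 0 in every library and Prm1 did not exceed 0.6 TPM.

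In complex V, Atp5mpl, Atp5g1, Atp5k, Atp5g3, Atp5f1 and Atp5j2 rose with bleomycin, while the catalytic alpha and beta subunits did not pass. Atp5f1 is subunit b of the peripheral stalk that holds the catalytic head still. In batch 2, Atp5f1 measured 186 and 188 TPM with Ad-ATP12A, 187 and 198 with Ad-GFP, 194 and 205 with bleomycin and 168 and 156 in control. In batch 1, Atp5f1 had 221 and 226 TPM with Ad-ATP12A, 227 and 249 with Ad-GFP, 237 and 227 with bleomycin and 164 and 159.9 in control. No bleomycin-treated library overlapped the control libraries. Atp5f1 rose by 0.41 ± 0.078 (SE; limma adjusted p = 0.00407). Atp5mpl is a small proteolipid of the membrane part, and Atp5k is subunit e, which helps join ATP synthase into dimers. In batch 2, Atp5mpl measured 379 and 355 TPM with Ad-ATP12A, 298 and 369 with Ad-GFP, 337 and 361 with bleomycin and 288 and 289 in control. In batch 1, Atp5mpl had 438 and 402 TPM with Ad-ATP12A, 450.4 and 477 with Ad-GFP, 488 and 463 with bleomycin and 249 and 262 in control. All treated libraries lay above the control libraries here too. Atp5mpl rose by 0.58 ± 0.13 (SE; limma adjusted p = 0.00764) and Atp5k by 0.42 ± 0.10 (SE; limma adjusted p = 0.0141). Atp5a1, the alpha subunit, had −0.024 ± 0.086 (SE; limma adjusted p = 0.877), Atp5b, the beta subunit, had 0.081 ± 0.088 (SE; limma adjusted p = 0.552) and Atp5c1, the gamma subunit of the rotor, had 0.15 ± 0.097 (SE; limma adjusted p = 0.301). In batch 2, Atp5a1 stood at 293 and 319 TPM with Ad-ATP12A, 286 and 286 with Ad-GFP, 279.9 and 296 with bleomycin and 304 and 257 in control. In batch 1, Atp5a1 had 235 and 257 TPM with Ad-ATP12A, 235 and 249 with Ad-GFP, 268 and 251 with bleomycin and 284 and 267 in control. The Atp5a1 ranges of bleomycin and control overlap.

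Atp5g1, Atp5g2 and Atp5g3 encode the same mature subunit c, which forms the rotor ring. In batch 2, Atp5g1 measured 103 and 114 TPM with Ad-ATP12A, 88.9 and 80.7 with Ad-GFP, 89.2 and 97.4 with bleomycin and 73 and 70.3 in control. In batch 1, Atp5g1 had 104 and 96.6 TPM with Ad-ATP12A, 117 and 126 with Ad-GFP, 133 and 129 with bleomycin and 74.9 and 79.3 in control. The bleomycin-treated libraries all lay above the control libraries. Atp5g1 rose by 0.57 ± 0.12 (SE; limma adjusted p = 0.00659) and Atp5g3 by 0.41 ± 0.11 (SE; limma adjusted p = 0.0172). The least abundant of the 3 genes, Atp5g2, had the largest difference but also the largest spread. In batch 2, Atp5g2 measured 16.2 and 17.1 TPM with Ad-ATP12A, 22.4 and 15.9 with Ad-GFP, 15.5 and 13.3 with bleomycin and 15.8 and 13.3 in control. In batch 1, Atp5g2 had 15.4 and 20.5 TPM with Ad-ATP12A, 13.8 and 25.2 with Ad-GFP, 24.2 and 19.1 with bleomycin and 7.53 and 7.01 in control. In batch 1 every treated library lay above both controls. In batch 2 bleomycin overlapped control, while the Ad-ATP12A and Ad-GFP libraries lay above both controls. There Ad-GFP replicate 2 was at 15.91 TPM, beside 15.85 TPM in control replicate 1. Its log2 fold change was 0.71 ± 0.26 (SE; limma adjusted p = 0.0684), with −0.013 in batch 2 and 1.44 in batch 1. The 3 genes together summed to 483 and 543 TPM with Ad-ATP12A, 433 and 456 with Ad-GFP, 436 and 458 with bleomycin and 395 and 370.4 in control in batch 2, and to 494 and 502 TPM with Ad-ATP12A, 511 and 602 with Ad-GFP, 595 and 570.1 with bleomycin and 359.8 and 363 in control in batch 1. Atp5s, a coupling factor that is not a stable subunit, had −0.30 ± 0.20 (SE; limma adjusted p = 0.322).

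The 2 adenovirus groups were set against the same control libraries, so that these comparisons are not independent of the bleomycin comparison or of each other. With Ad-ATP12A, 23 members rose and 3 fell, where 13.3% of all genes rose and 9.49% fell. With Ad-GFP, 19 members rose and none fell, where 9.16% of all genes rose and 4.52% fell. The members' median was 0.24 with Ad-ATP12A and 0.22 with Ad-GFP, and all genes tested had 0.0047 and 0.027. The within-batch medians of the members were 0.14 in batch 2 and 0.34 in batch 1 with Ad-ATP12A, and 0.070 in batch 2 and 0.42 in batch 1 with Ad-GFP. Batch 2 fitted alone in limma gave 3 calls for Ad-ATP12A and 0 for Ad-GFP, where 4 members had an unadjusted p under 0.05, and batch 1 gave 36 for Ad-ATP12A and 48 for Ad-GFP. With quantile normalization the calls were 9 higher and 5 lower with Ad-ATP12A, and 7 higher and 3 lower with Ad-GFP. Here too the shares of all genes are those of the main fit, against which these counts cannot be read. Against the control group, Cox5a had 0.73 ± 0.12 (SE; limma adjusted p = 0.00127) with Ad-ATP12A and 0.70 ± 0.12 (SE; limma adjusted p = 0.00275) with Ad-GFP. Sdhd had 0.42 ± 0.088 (SE; limma adjusted p = 0.00511) with Ad-ATP12A and 0.40 ± 0.088 (SE; limma adjusted p = 0.011) with Ad-GFP. Uqcrq had 0.65 ± 0.15 (SE; limma adjusted p = 0.0075) with Ad-ATP12A and 0.72 ± 0.15 (SE; limma adjusted p = 0.00773) with Ad-GFP. Atp5f1 had 0.34 ± 0.078 (SE; limma adjusted p = 0.00923) with Ad-ATP12A and 0.40 ± 0.078 (SE; limma adjusted p = 0.00646) with Ad-GFP. These 4 calls held in both comparisons whichever library was left out. The third member to fall with Ad-ATP12A, besides Cox8b and Cox6a2, was Sdha, at −0.24 ± 0.072 (SE; limma adjusted p = 0.0296), and this call was lost in 6 of 16 fits with 1 library left out. Ndufv3, a small subunit of the NADH module, had 0.44 ± 0.11 (SE; limma adjusted p = 0.0152) with Ad-ATP12A and 0.35 ± 0.11 (SE; limma adjusted p = 0.0559) with Ad-GFP. The number called with Ad-ATP12A was 8 without Ad-ATP12A batch 2 replicate 2, 11 without Ad-ATP12A batch 2 replicate 1, 16 without Ad-ATP12A batch 1 replicate 1, 40 without control batch 2 replicate 1, and 11 and 10 without control batch 1 replicates 1 and 2. With Ad-GFP it was 9 without Ad-GFP batch 2 replicate 2, 4 without Ad-GFP batch 1 replicate 2, and 6 and 5 without control batch 1 replicates 1 and 2.

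Set against each other, the bleomycin-treated groups did not differ in any member past the threshold. Ad-ATP12A against Ad-GFP, which asks what the ATP12A virus adds to a virus, gave 0 members higher and 0 lower, with 0.00588% of all genes higher and 0% lower. No member reached an unadjusted p of 0.05 in limma. Leaving out the 3 muscle isoforms, the log2 fold changes of the other 78 members ranged from −0.21 (Cox4i2) to 0.14 (Ndufs8), with a median half-width of the 95% interval of 0.22. For Cox5a the interval was −0.22 to 0.28 and for Uqcrq −0.38 to 0.25. Ad-GFP against bleomycin, which asks what a virus adds to bleomycin, also gave 0 higher and 0 lower (background 0.00588% and 0.00588%), and again no member reached an unadjusted p of 0.05. Its 78 log2 fold changes ranged from −0.27 to 0.12, and the interval for Cox5a was −0.29 to 0.21. Over the 78 members the interval bounds reached −0.67 and 0.43 for Ad-ATP12A against Ad-GFP, and −0.66 and 0.64 for Ad-GFP against bleomycin, so the groups are not shown to be alike.

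Between batches, with group in the fit, 2 members rose and 12 fell in batch 2 relative to batch 1, where 16.4% of all genes rose and 2.11% fell. The members' median was −0.11 and that of all genes 0.094, and after median-ratio scaling they were −0.23 and −0.012, with 0 members higher and 34 lower (0 and 30 under quantile normalization). The shares of 16.4% and 2.11% are those of the main fit, and the counts after scaling cannot be read against them. Ndufs5, an accessory complex I subunit, was among those that fell. In batch 2, Ndufs5 measured 113 and 138 TPM with Ad-ATP12A, 136 and 125 with Ad-GFP, 136 and 143 with bleomycin and 133 and 137 in control. In batch 1, Ndufs5 had 182 and 169.7 TPM with Ad-ATP12A, 185 and 197 with Ad-GFP, 180.2 and 186 with bleomycin and 132 and 142 in control. In the bleomycin-treated groups every batch 2 library lay below every batch 1 library, while the control libraries of both batches lay together. Ndufs5 fell by 0.36 ± 0.076 (SE; limma adjusted p = 0.0112), Ndufb3 by 0.36 (limma adjusted p = 0.0121), and Cox7b and Atp5j2 fell too, by 0.32 and 0.28. These 4 calls held whichever library was left out. The 2 that rose were Atp5c1 (0.23) and Cox7a2l (0.19), neither of which was higher under quantile normalization or median-ratio scaling at the threshold. Without 1 library the number called was 6, 9 and 6 (Ad-ATP12A batch 2 replicates 1 and 2, batch 1 replicate 1), 7, 6, 5 and 5 (Ad-GFP batch 2 replicates 1 and 2, batch 1 replicates 1 and 2), 5, 8 and 4 (bleomycin batch 2 replicate 2, batch 1 replicates 1 and 2), and 23, 33 and 27 (control batch 2 replicates 1 and 2, batch 1 replicate 1). Without the 3 libraries low in Scgb1a1, a fit added after the data were seen, limma called 0 members, with 34 at an unadjusted p under 0.05.

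An interaction test asked whether a treatment acted alike in both batches. For Ad-ATP12A against control the effect differed in 4 members (2.8% of all genes), Ndufa4, Ndufa5, Ndufa2 and Atp5j, and for Ad-GFP against control in 4 (2.36% of all genes), Ndufa4, Ndufa2, Ndufa13 and Ndufb4. For bleomycin against control it differed in 0 of 81 (0.0647% of all genes), though 35 members had an unadjusted p under 0.05 in limma, and 3, 7 and 6 were called under quantile normalization, median-ratio scaling and array weights. The count for Ad-ATP12A was 9 under quantile normalization, 7 with array weights, 1 with no filter and 0 with the length trend removed. For Ad-GFP it was 13 under quantile normalization, 20 under median-ratio scaling, 9 after rescaling without mitochondrial genes, 1 with the length trend removed, and 0 with array weights or without the 3 libraries low in Scgb1a1. For both it was 0 with a replicate block and with the 8 libraries compared alone. The shares of all genes named here are those of the main fit only. In all 8 calls for the viruses the effect was lower in batch 2. Ndufa2 is an accessory subunit near the NADH module. In batch 2, Ndufa2 measured 103 and 105 TPM with Ad-ATP12A, 96.4 and 107 with Ad-GFP, 109 and 103 with bleomycin and 121 and 101 in control. In batch 1, Ndufa2 had 136 and 136 TPM with Ad-ATP12A, 136 and 146 with Ad-GFP, 142 and 147 with bleomycin and 91.2 and 93.5 in control. In batch 1 the treated libraries lay above both controls, and in batch 2 they overlapped them. The difference between batches for Ndufa2 was −0.64 (limma adjusted p = 0.0486) for Ad-ATP12A and −0.72 (limma adjusted p = 0.0376) for Ad-GFP. Ndufa4 had −0.68 (limma adjusted p = 0.0493) for Ad-ATP12A and −0.71 (limma adjusted p = 0.0461) for Ad-GFP. Ndufa5, an accessory subunit of the arm that leads to ubiquinone, had −0.84 (limma adjusted p = 0.0491) and Atp5j, of the peripheral stalk, −0.57 (limma adjusted p = 0.0493) for Ad-ATP12A. Ndufa13 had −0.69 (limma adjusted p = 0.0376) and Ndufb4 −1.03 (limma adjusted p = 0.0312) for Ad-GFP. For Ad-ATP12A, 5 calls were made without either Ad-GFP library of either batch or without control batch 2 replicate 1, and 0 without any other single library (15 to 25 members at an unadjusted p under 0.05 in limma). For Ad-GFP, 3 calls were made without either Ad-ATP12A library of batch 1, 4 without control batch 2 replicate 1, 1 without either batch 2 library of Ad-ATP12A or of bleomycin, and 0 without any other single library (25 to 42 members at an unadjusted p under 0.05 in limma). The effect was larger in batch 1 than in batch 2 in 60 of 81 members with Ad-ATP12A, 67 with Ad-GFP and 65 with bleomycin.

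**Figure D3:**
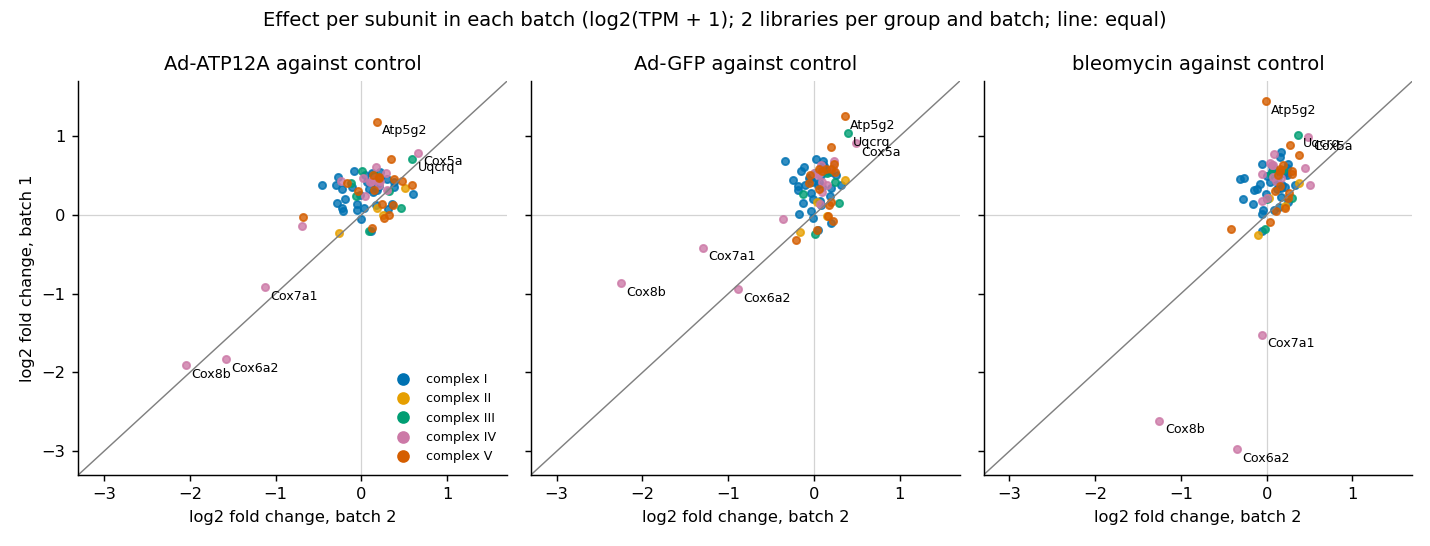
Log2 fold change of TPM + 1 against control for each of 81 members in batch 2 (horizontal axis) and in batch 1 (vertical axis), for Ad-ATP12A, Ad-GFP and bleomycin, coloured by complex; each value is a difference of means of 2 libraries per group and the line marks equal effects. Most points lie above the line, and Cox8b lies at negative values in both batches in each panel.

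The 13 protein genes of mitochondrial DNA, which encode the partners of these subunits, were measured in the same libraries. No mitochondrially encoded gene passed in Ad-ATP12A against control, Ad-GFP against control or bleomycin against control (medians −0.34, 0.18 and 0.17), and in Ad-ATP12A against control mt-Nd2 came nearest, at −0.72 ± 0.26 (SE; limma adjusted p = 0.0566). Between batches 8 of 13 fell in batch 2 and 0 rose, with a median of −0.54, where 2.11% of all genes fell and 16.4% rose. One of the 8 was mt-Cytb, cytochrome b of complex III. In batch 2, mt-Cytb measured 3766 and 3836 TPM with Ad-ATP12A, 6374 and 4258 with Ad-GFP, 7006 and 6207 with bleomycin and 6174 and 7704 in control. In batch 1, mt-Cytb had 10447 and 8212 TPM with Ad-ATP12A, 12717 and 10751 with Ad-GFP, 8496 and 9684 with bleomycin and 6689 and 7117 in control. Both Ad-ATP12A libraries and Ad-GFP replicate 2 of batch 2 were the lowest of the 16, and in batch 1 the treated libraries lay above both controls. mt-Cytb fell by 0.73 ± 0.18 in batch 2 (SE; limma adjusted p = 0.0184). The effect against control differed between batches for mt-Nd3, a membrane subunit of complex I, by −2.09 (limma adjusted p = 0.0287) with Ad-ATP12A and −1.58 (limma adjusted p = 0.0376) with Ad-GFP, and for mt-Nd4l by −1.63 (limma adjusted p = 0.0409) and −1.57 (limma adjusted p = 0.0429). It also differed for mt-Co2, of complex IV, and mt-Atp6, of complex V, with Ad-GFP, by −2.07 (limma adjusted p = 0.0444) and −1.63 (limma adjusted p = 0.0438). Of the 13 genes these were 2 with Ad-ATP12A and 4 with Ad-GFP, where 2.8% and 2.36% of all genes differed. The genes mt-Atp8 and mt-Atp6 overlap, as do mt-Nd4l and mt-Nd4, so that reads could be split between them, and mt-Atp8 alone held 18468 to 36904 TPM. Without mt-Atp8 the mitochondrially encoded genes summed to 29333 and 29463 TPM with Ad-ATP12A, 44034 and 32458 with Ad-GFP, 48647 and 44642 with bleomycin and 45789 and 54696 in control in batch 2. In batch 1 they summed to 67607 and 55997 TPM with Ad-ATP12A, 81526 and 72098.5 with Ad-GFP, 54639.8 and 62582 with bleomycin and 46889 and 48483 in control. In the 3 libraries with the lowest of these sums, both Ad-ATP12A libraries and Ad-GFP replicate 2 of batch 2, the nuclear members summed to 14528.5, 15672 and 14603.5 TPM, where the batch 2 controls had 14189 and 13138.5 TPM.

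**Figure D4:**
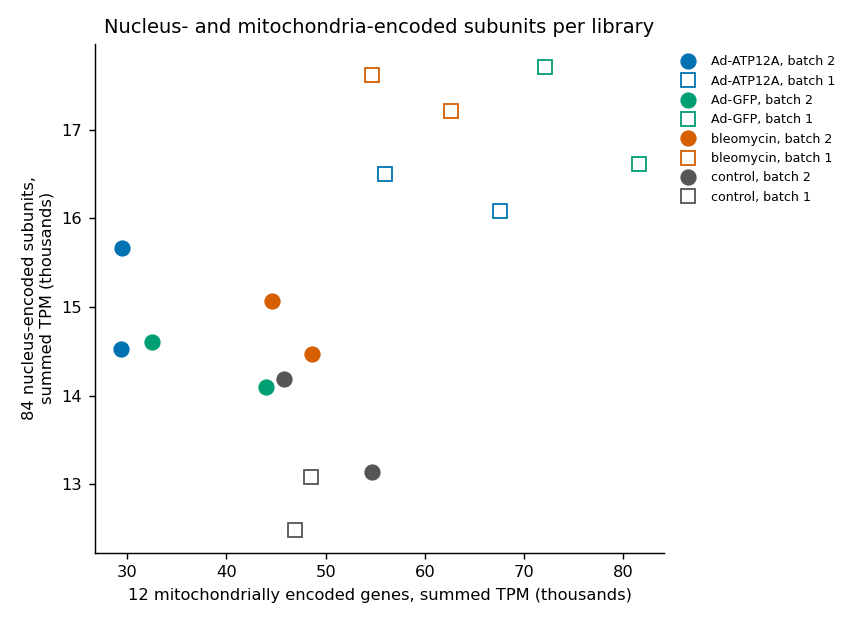
Summed TPM of the 84 nucleus-encoded subunits (vertical axis) against that of 12 mitochondrially encoded protein genes, mt-Atp8 left out (horizontal axis), 1 point per library, by group and batch. Batch 1 treated libraries lie at the top, the batch 1 controls at the bottom, and the batch 2 libraries spread along the horizontal axis at member sums of 13138.5 to 15672 TPM.

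In batch 1 the members with short coding sequences had larger fold changes than those with long ones. Leaving out the 3 muscle isoforms, 19 members with a coding length of up to 300 bases had a median log2 fold change with bleomycin of 0.11 in batch 2 and 0.56 in batch 1, and 9 members over 1200 bases had 0.085 and 0.047. Between them, 39 members of 300 to 600 bases had 0.11 and 0.42, and 11 of 600 to 1200 bases had 0.22 and 0.22. Across the 78 members Pearson's r between log2 coding length and the effect of bleomycin was −0.058 in batch 2 and −0.53 in batch 1. It was 0.10 and −0.63 for Ad-ATP12A, and 0.090 and −0.57 for Ad-GFP. Over all 14575 coding genes tested it was −0.015 and −0.094 for bleomycin, −0.073 and −0.14 for Ad-ATP12A, and 0.029 and −0.11 for Ad-GFP. These are correlations across genes of the same libraries, which share their scaling, and genes are not independent replicates. All 320 tested coding genes of up to 300 bases had 0.064 in batch 2 and 0.36 in batch 1, and the 8236 over 1200 bases had 0.11 and −0.076. After the trend of log2(TPM + 1) on transcript length was removed within each library, a step added after the data were seen, 15 members were called for bleomycin (12 higher, 3 lower; median 0.13), 11 for Ad-GFP and 15 for Ad-ATP12A (11 higher, 4 lower). The share of all genes called in that fit is not given here. Whether members were called more often than other genes there cannot be read from these counts.

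**Figure D5:**
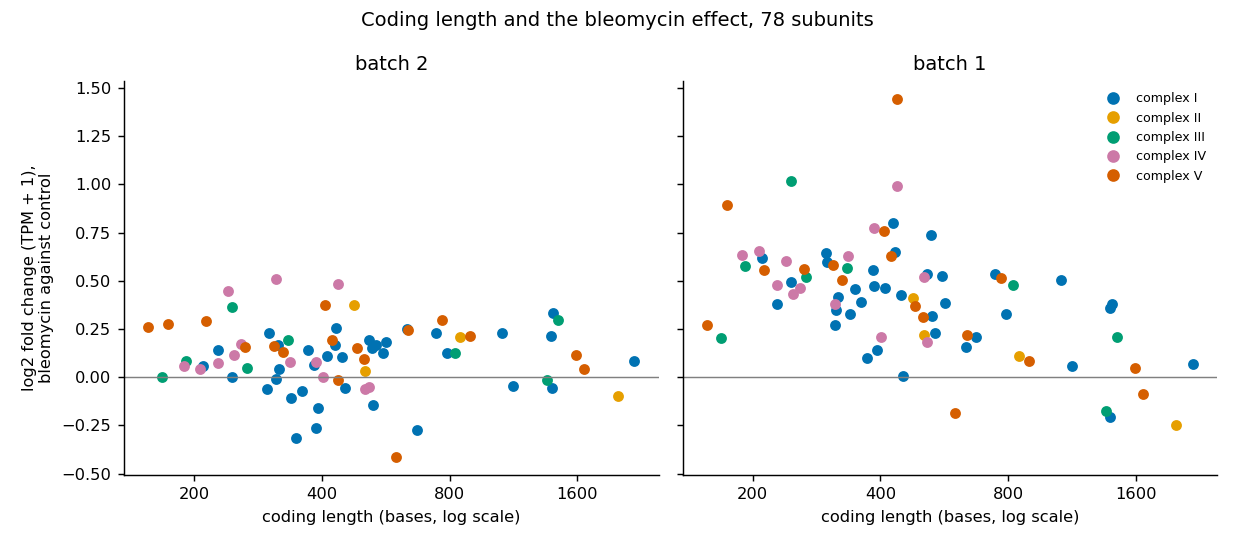
Log2 fold change of TPM + 1 of bleomycin against control in batch 2 and in batch 1 against coding length in bases (log scale) for 78 members, coloured by complex; each value is a difference of means of 2 libraries per group. In batch 1 the points fall with length, and in batch 2 they show no such slope (r of −0.058).

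Members of one complex mostly varied together over the libraries. Each member's log2(TPM + 1) was correlated with the mean of the other tested members of its complex over the 16 libraries, which share group and batch, as a description. The muscle isoforms Cox6a2, Cox7a1 and Cox8b were left out of the complex IV mean. No correlation with members of other complexes was taken for comparison. The median r was 0.79 in complex I, 0.31 in complex II, 0.76 in complex III, 0.87 in complex IV and 0.75 in complex V. It was 0.8 or more in 37 of 81 members and under 0.5 in 21. Atp5g3 (0.96) and Ndufa1 (0.95) were the closest to their complexes. Negative values were found for Uqcrc2 (−0.54), Ndufv1 (−0.52), Atp5s (−0.47), Atp5a1 (−0.34) and Sdha (−0.31), and for the muscle isoforms Cox6a2 (−0.60), Cox8b (−0.52) and Cox7a1 (−0.39).

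Other mitochondrial genes were counted in the same comparison, bleomycin against control, against the same background of 13.2% higher and 5.61% lower. The mitochondrial ribosome, which translates the mitochondrially encoded subunits, had 31 of 78 proteins higher and 0 lower (median 0.28), with Mrpl17 at 0.71 and Mrps6 at 0.60. A list of protein import genes also held the porins Vdac1, Vdac2 and Vdac3 and the metabolite carriers Slc25a3, Slc25a4 and Slc25a5. Of its 25 genes 7 rose (median 0.28), among them Timm23, the protein import channel of the inner membrane, at 0.62 and Timm8b at 0.47. Assembly factors rose in 4 of 44 (median 0.055), namely Uqcc2 (0.55), Ndufaf2 (0.42), Ndufaf4 (0.33) and Cox20 (0.33). Tricarboxylic acid cycle genes rose in 2 of 18 (median 0.020), which were Dlst (0.28) and citrate synthase Cs (0.29). Fatty acid oxidation genes fell in 1 of 18 (median −0.12), Acadm, the medium-chain dehydrogenase, at −0.38. None of 14 genes for mitochondrial DNA upkeep and transcription passed in limma, and none had an unadjusted p under 0.05. Among 15 biogenesis regulators 2 rose, Myc (1.27) and Esrra (0.33), and 2 fell, Epas1 (−1.03) and Ppargc1a (−0.82), a coactivator known to raise respiratory chain genes. Ppargc1a was low throughout, in batch 2 at 1.59 and 1.43 TPM with Ad-ATP12A, 2.25 and 1.6 with Ad-GFP, 2.68 and 1.38 with bleomycin and 3.63 and 3.38 in control. In batch 1 it was at 2.57 and 1.87 TPM with Ad-ATP12A, 2.57 and 1.13 with Ad-GFP, 1.34 and 1.13 with bleomycin and 4.64 and 2.73 in control. The bleomycin and control libraries do not overlap. In the mitochondrial stress response 4 of 15 rose, with Gdf15 at 1.51, Psat1 at 1.20 and Mthfd2 at 1.11, and 1 fell, Atf5 at −0.66. Of 16 related genes outside the rule 6 rose (median 0.26), among them Ndufb1-ps (0.69), named as a pseudogene, the acyl carrier protein Ndufab1 (0.52), the ATP synthase inhibitor Atpif1 (0.50) and cytochrome c, Cycs (0.33). Cytosolic ribosomal proteins, another set of short and abundant transcripts, a list added after the data were seen, rose in 11 of 79 (median 0.26, with 0.043 in batch 2 and 0.49 in batch 1).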

How the data were processed

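Lung RNA was extracted with the RNeasy mini plus kit, per the labels' protocols. STAR and RSEM were run with GRCm39 (mm39), per the submitters' processing notes. Versions, annotation and strand setting are not given in the sources used here. The authors deposited 1 table of log2(TPM + 1) values for 53647 Ensembl identifiers in 16 libraries. It was turned back to TPM. No column of another series was present. TPM hold no counts, so depth, count intervals and floors are not given.

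Symbols were taken from GENCODE M21 (GRCm38), which matched 52093 identifiers and left 1554 without a symbol. Genes that reached 1 TPM in 4 or more libraries, 17003 in all, were fitted with limma 3.58.1 in R 4.3.3. The values were log2(TPM + 1), on which fold changes of low genes are understated. The fit had 4 group means, a batch term and a trended prior variance. Tests were two-sided, with Benjamini-Hochberg adjustment over all genes tested and a threshold of 0.05. Differences between batches were contrasts of 8 group-by-batch means. The procedure was tested on simulated data. The labels name no pairs, and replicate numbers were not used as pairs in the main fit. Over 24 pairs of same-numbered replicates the correlation of their deviations ran from −0.44 to 0.30. Deviations from fitted group and batch means lean to negative correlations, and differently numbered replicates were not compared. These values therefore cannot show or exclude pairing.

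The members and lists were chosen with earlier results of these data known. Named members were those past the threshold with the smallest p (up to 20 a comparison), the extremes of each complex, paired isoforms and core subunits. From each further list at most 4 genes with the smallest p were named. Alternatives were 2 pseudocounts and filters, 3 scalings, fits without the batch term, with a replicate block, with array weights, of 8 libraries or 1 batch alone, and without each library. A fit without 3 libraries, a fit with the length trend removed and the ribosomal protein list were chosen after seeing the data. One member is counted in all totals but is not reported by name here.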

Additional observations from a re-analysis of the deposited data

Results flagged for a closer look

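The effect against control differed between batches, by a limma interaction test, in 4 of 81 members for Ad-ATP12A (2.8% of all genes) and 4 of 81 for Ad-GFP (2.36% of all genes), each time lower in batch 2. Leaving out 1 library gave 0 to 5 calls for Ad-ATP12A and 0 to 4 for Ad-GFP, and the number was 0 for Ad-ATP12A without any 1 library of Ad-ATP12A, bleomycin or batch 1 control, or control batch 2 replicate 2. It was 0 for Ad-GFP without any 1 library of Ad-GFP, batch 1 bleomycin or batch 1 control, or control batch 2 replicate 2. On the log2 scale, batch 2 minus batch 1, the differences with Ad-ATP12A were −0.68 for Ndufa4, −0.84 for Ndufa5, −0.64 for Ndufa2 and −0.57 for Atp5j. With Ad-GFP they were −0.71 for Ndufa4, −0.72 for Ndufa2, −0.69 for Ndufa13 and −1.03 for Ndufb4. Among the mitochondrially encoded genes they were −2.09 for mt-Nd3 and −1.63 for mt-Nd4l with Ad-ATP12A. With Ad-GFP they were −2.07 for mt-Co2, −1.63 for mt-Atp6, −1.58 for mt-Nd3 and −1.57 for mt-Nd4l.

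A single library stood apart from the other three of its group in 6 of 216 groups looked at, where chance gives about 1 in 20. The summed TPM of complex II was lowest in Ad-GFP batch 1 replicate 1, at 384 TPM beside 418 to 424 TPM, a gap of 0.850 of the group's range. Ndufa5 was lowest in control batch 1 replicate 1, at 117 TPM beside 154 to 161 TPM (0.831 of the range). The highest mt-Co1 value in control was 13941 TPM in batch 2 replicate 2, beside 12375 to 12428 TPM (0.966 of the range). In bleomycin batch 2 replicate 2, mt-Atp6 stood at 644 TPM beside 820.1 to 856 TPM (0.831 of the range) and mt-Nd6 at 4142 TPM beside 4466 to 4531 TPM (0.832 of the range). Control batch 2 replicate 2 had 5212 TPM of mt-Nd6 beside 3958 to 4161 TPM (0.838 of the range).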

How the results depend on the processing

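No named member changed direction with a call under the alternatives run. The counts of called members, main value 26 for Ad-ATP12A against control, 19 for Ad-GFP against control, 29 for bleomycin against control and 14 for batch 2 against batch 1, moved in the same order as follows. They were 13, 9, 15 and 4 with no filter, 14, 10, 15 and 30 with quantile normalization, 16, 11, 17 and 34 with median-ratio scaling, and 46, 48, 63 and 36 with array weights. With the transcript length trend removed they were 15, 11, 15 and 6. With a replicate block they were 15, 11, 18 and 7. Without the batch term the first 3 were 14, 11 and 16. With the 8 libraries compared alone Ad-GFP had 2 and bleomycin 18. Batch 2 alone gave 3, 0 and 0, and batch 1 alone gave 48 for Ad-GFP and 54 for bleomycin. Without the 3 libraries low in Scgb1a1 Ad-GFP had 12 and the batch comparison 0. Leaving out 1 library gave 8 to 40 for Ad-ATP12A, 4 to 28 for Ad-GFP, 10 to 42 for bleomycin and 4 to 33 for the batches. Ad-ATP12A against Ad-GFP and Ad-GFP against bleomycin had 0 calls under every alternative run. The cause of these shifts was not tested, save that no filter tests more genes. The share of all genes called under each alternative is not given here, so these counts do not set the members apart from other genes.

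Members whose effect differed between batches numbered 4 for Ad-ATP12A, 4 for Ad-GFP and 0 for bleomycin. In the same order they were 9, 13 and 3 with quantile normalization, and for Ad-GFP and bleomycin 20 and 7 with median-ratio scaling. With array weights they were 7, 0 and 6. A replicate block gave 0 for both viruses, as did the 8 libraries alone. For Ad-ATP12A no filter gave 1 and removing the length trend 0. For Ad-GFP removing the length trend gave 1, rescaling without mitochondrial genes 9, and leaving out the 3 libraries low in Scgb1a1 gave 0. Leaving out 1 library gave 0 to 5 for Ad-ATP12A and 0 to 4 for Ad-GFP. These counts too are given without the share of all genes under the same alternative. Values of single members were followed for the members called in each comparison and for further named members with bleomycin, not for all 81, so that gains by other members stand only in the counts above. Of these, 2377 kept their side of the threshold, 850 lost a call and 47 gained one.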
